A study of Drosophila melanogaster with 2 samples.

Results

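The 200 highest peaks of CG31365 were the top of the list of peaks that the authors kept as reproducible between replicates (the IDR list, for irreproducible discovery rate), which holds 2621 further peaks. They were chosen by the deposited signal, the enrichment value of each peak: rows were sorted by it and the first 200 taken. The chromatin immunoprecipitation (ChIP-seq) was done on whole Drosophila melanogaster embryos aged 0 to 24 h, of both sexes pooled, from a transgenic line that stably carried CG31365 with GFP at its C-terminus. There was 1 group, with biological replicates 2 and 3 and no untreated or control library among the files used here. The labels do not say in which cells the fusion was expressed, and in a whole embryo a peak present in more cells and one stronger in each cell cannot be told apart. A free-text line in the labels calls both libraries an input control, whereas the other fields (assay, target, antibody) name CG31365 ChIP, as which the values below are reported. Read depth is unknown, because the files give peaks and no counts.

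CG31365 is a Drosophila gene still known by its annotation number, on chromosome arm 3R at 23123962 to 23126422 (dm6), and RefSeq calls its product an uncharacterized protein. In ChIP-seq, DNA bound by the tagged protein is recovered and sequenced, and a peak marks a stretch recovered more often than its surroundings, with its summit as the most likely position of contact. A summit close to a transcription start site is called a promoter peak, one far from any start site may lie in an intron or between genes, and neither location says which gene, if any, responds to the protein. No peak of the IDR list or of the list from pooled reads lay within 1000 bp of the CG31365 gene itself.

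The short word AAGCAGT, or its reverse complement ACTGCTT, lay wholly within 100 bp of the summit in 146 of the 200 members. Genomic sequences (RefSeq, dm6, plus strand) of 9 of the 10 highest members and of CheB93b (rank 12) are printed, with the copies in capitals, and that of rank 3 is not shown. Each run covers 50 bases on both sides of the summit, except that of Antp. The Antp run, in an annotated 3′ UTR, is limited to 30 bases with 2 of its 4 copies, begins 7 bp past the summit and does not hold the summit.
InR, chr3R:21580242-21580342: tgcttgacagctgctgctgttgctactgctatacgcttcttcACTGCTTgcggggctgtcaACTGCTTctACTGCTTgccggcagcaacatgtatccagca
tRNA:Thr-AGT-1-4, chr3R:16431796-16431896: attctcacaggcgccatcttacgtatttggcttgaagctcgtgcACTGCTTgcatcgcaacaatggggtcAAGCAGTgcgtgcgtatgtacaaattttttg
bun, chr2L:12520387-12520487: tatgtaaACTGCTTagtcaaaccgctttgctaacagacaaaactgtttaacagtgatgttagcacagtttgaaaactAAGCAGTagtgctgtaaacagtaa
Rtnl1, chr2L:5001444-5001544: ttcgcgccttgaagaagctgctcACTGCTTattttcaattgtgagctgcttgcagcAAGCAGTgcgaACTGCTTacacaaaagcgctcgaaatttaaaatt
Antp, chr3R:6908272-6908301: acaatataAAGCAGTacatctagACTGCTT
T48, chr3R:26881495-26881595: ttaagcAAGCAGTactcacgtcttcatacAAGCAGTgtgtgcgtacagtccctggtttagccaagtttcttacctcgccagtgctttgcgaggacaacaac
dachs, chr2L:8478108-8478208: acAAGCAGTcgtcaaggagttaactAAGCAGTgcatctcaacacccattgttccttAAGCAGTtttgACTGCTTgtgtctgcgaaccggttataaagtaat
Jhbp1, chr3R:4970798-4970898: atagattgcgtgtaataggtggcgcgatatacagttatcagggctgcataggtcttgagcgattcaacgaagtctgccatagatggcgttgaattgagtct
tRNA:iMet-CAT-1-5, chr3L:14674174-14674274: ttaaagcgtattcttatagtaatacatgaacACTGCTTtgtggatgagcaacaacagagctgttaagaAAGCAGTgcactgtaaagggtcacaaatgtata
CheB93b, chr3R:21408526-21408626: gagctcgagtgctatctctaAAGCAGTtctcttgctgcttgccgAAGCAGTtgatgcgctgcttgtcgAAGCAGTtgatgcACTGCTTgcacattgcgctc
The Jhbp1 run holds no copy, because its only copy was centred 95 bp from the summit. The InR run holds 3 copies, all on the same strand, and 1 more copy lay farther out. The copies at the tRNA:Thr-AGT-1-4 and tRNA:iMet-CAT-1-5 genes formed a pair pointing away from each other. At CheB93b, 3 copies in 1 orientation followed each other in a repeated unit, with 1 more on the other strand.

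Of the 146 members with the word, 101 held 2 or more copies within 100 bp of the summit. The 146 members held 301 copies, with 1 copy in 45 members, 2 in 61, 3 in 28, 4 in 10 and 5 in 2 (dachs and dpr2). The copies, counted only within 100 bp, clustered at the summit: 151 of the 301 (50.2%) were centred within 20 bp of it. The median distance from a summit to its nearest copy was 11 bp, with 2 or more copies to choose from in 101 members. C stood directly ahead of the word in 61.1% of copies and G ahead of that position in 46.5%, while G followed the word in 49.5% and C followed at the next position in 50.5%. The word flanked by GC on both sides occurred in 36 members (18%), against 0.572% of the other IDR peaks. This contrast includes that of the word itself, which was in 73.0% and 8.66%. Among peaks with the word, the flanked form was in 36 of 146 members and 15 of 227 other IDR peaks. This count is per peak and not per copy, and 2 or more copies were in 101 of the 146 and in 58 of the 227. Among 155 pairs of adjacent copies, 107 (69.0%) pointed the same way, 22 faced each other and 26 pointed apart. Their start-to-start spacing was 9 to 11 bp in 28 pairs and 19 to 21 bp in 22 pairs, against 10 pairs at 15 to 17 bp, with bins chosen after the spacings were seen. The word came from an earlier search over these same peaks, so its frequency, position and flanks are given as a description.

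The signal fell steeply down the list, from 11639 at rank 1 to 6780 at rank 10, 3338 at rank 50, 1422 at rank 100 and 739.675 at rank 200. The median was 1421 in the members and 180.8 in the other 2621 IDR peaks. Within 100 bp the word accompanied every member of ranks 1 to 74. Within 50 bp it was in 67.0% of the 200 members, and 3 of ranks 1 to 74 lacked it, the first at rank 9. It was in 20 of 26 members of ranks 75 to 100 (76.9%), in 11 of 25 of ranks 176 to 200 (44.0%, 95% Wilson interval 26.7 to 62.9%), in 50 of 200 peaks of the next 200 ranks (25%) and in 7.31% of all lower ranks. Of the 27179 peaks of the pooled list below the IDR list, 2.74% held it. The mean number of copies fell from 3 per peak in ranks 1 to 25 to 0.72 in ranks 176 to 200, and the median peak width from 634 to 316 bp.

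**Figure D1:**
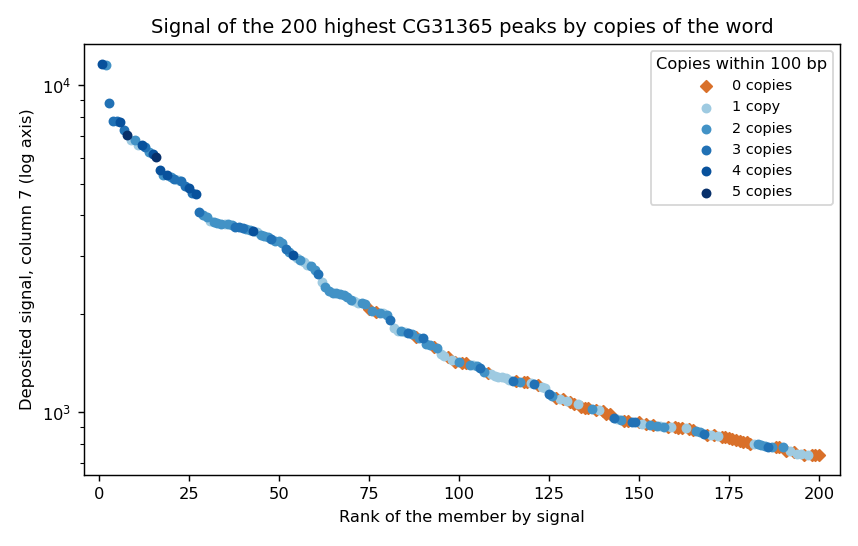
Deposited signal (log axis) of each of the 200 members against its rank, with colour for the number of AAGCAGT copies within 100 bp of the summit. All peaks up to rank 74 hold at least 1 copy, and the orange diamonds, with 0 copies, begin at rank 75 at a signal of 2076.

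Several of the highest peaks were at genes with well known roles. The strongest was in coding sequence of InR, the insulin receptor gene, 9899 bp inside the gene from its nearest start site, with a signal of 11639 and rank 1 in both replicate lists. Another stood 614 bp upstream of an InR start site (rank 23, signal 5092) and another 178 bp downstream of one (rank 98, signal 1443). The insulin-like peptide gene Ilp5 had a member 533 bp upstream of its start site, inside the overlapping gene CG43897 (rank 27, signal 4644). SNF4Agamma, a subunit of the energy-sensing kinase AMPK, had one in an intron (rank 26, signal 4668). No other gene labelled 3 members, while 10 genes labelled 2 and the rest 1.

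Rank 4 lay in an intron of bun, which encodes a transcription regulator of the TSC-22 family, with a signal of 7777. Rank 5 was in an intron of Rtnl1, which encodes a reticulon that shapes the endoplasmic reticulum (signal 7748), and rank 45 was 175 bp upstream of another of its start sites. Rank 6 fell in the 3′ UTR of Antp, the Hox gene that specifies thoracic segments (signal 7722). T48, which acts in apical constriction at gastrulation, had rank 7 at 189 bp upstream of its start site (signal 7280). The myosin-like gene dachs of the Fat pathway had rank 8 in an intron, 547 bp upstream of the nearest of its start sites (signal 7019). Arp2, a subunit of the complex that nucleates branched actin, had rank 18 at 809 bp downstream. The neuronal cell-surface gene dpr2 had rank 16, and the chemosensory gene CheB93b rank 12. Set2, which encodes a histone H3 lysine methyltransferase, was the nearest gene to an intergenic summit of rank 17, whose distance to the Set2 start site was 8035 bp, on the downstream side.

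Of the 40 highest members, 31 were labelled by protein-coding genes, 6 by tRNA genes and 3 by other noncoding genes. The label is the gene with the nearest start site, or the host gene where the summit lay in a gene body over 1000 bp from any start site. Of the 40 labels 10, such as CG14762 (rank 11), CG6465 (rank 15) and CG34253 (rank 25), are genes known by a CG number alone. The remaining named genes among the 40 were Jhbp1 (rank 9), mRpL13 of the mitochondrial ribosome (rank 19), the microtubule-associated gene toc (rank 20), Cipc (rank 21), Eglp4, an aquaporin-family gene (rank 29), Agpat4, an acyltransferase gene (rank 30), bor (rank 32) and the integrin gene mew (rank 36). The noncoding labels were lncRNA:CR44282 (rank 3), lncRNA:CR44829 (rank 14) and lncRNA:CR43302 (rank 33). Among these 40 members 24 were promoter peaks, and the summit was upstream of the start site in 23 of the 24.

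Over all 200, the labels came from 188 genes, of which 161 were protein-coding. When the labels were sorted by role after they had been seen, 27 members were labelled by genes of transcription factors or chromatin proteins. Another 26 were labelled by genes of receptors, ligands or signalling, and 52 by genes with a CG number alone. Of these, 12, 16 and 30 were promoter peaks, and the others lay over 1000 bp from any start site. The share of all genes in each role was not counted, so these counts show no leaning towards a role. All 9 members labelled by genes of adhesion or extracellular matrix held the word, and so did all 8 labelled by tRNA genes, against 73.0% of all members. Rank goes with these counts, since 7 of the 8 tRNA members and 7 of the 9 adhesion members were among ranks 1 to 74, where every member held it. The adhesion group included mew and mys, which encode integrin subunits (ranks 36 and 59), and LanB2, a laminin subunit gene (rank 53).

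The share of members near start sites did not differ from that of the other IDR peaks beyond counting error, while the intergenic and intron shares did. A summit within 1000 bp of any annotated start site was found in 130 of 200 members (65.0%, 95% Wilson interval 58.2 to 71.3%) and in 62.1% of the other IDR peaks, a difference of 2.89 percentage points whose 95% Newcombe interval, -4.19 to 9.43, includes 0. Intergenic summits made up 31 members (15.5%) against 9.04%, 6.46 points higher (1.95 to 12.2). Introns held 29 members (14.5%) against 26.8%, 12.3 points lower (interval of the difference -16.8 to -6.49). The 3′ UTR class, with 7 members (3.50%) against 0.878%, was 2.62 points higher (0.776 to 6.18). It comprised Antp, 2 peaks in pros, a homeodomain gene of neural differentiation, and 1 each in wg (the Wnt ligand), Ca-alpha1T, CkIIbeta and CG5966, and all 7 held the word. The intervals cover counting error over peaks only, since neighbouring peaks are not independent and all come from the same embryos.

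Within the promoter class the members sat on the upstream side of the nearest start site. Some of these summits still lay within the body of the same gene, as at dachs, toc and mew. The summit was upstream of its nearest start site in 108 of 130 promoter members (83.1%) and in 65.7% of the promoter peaks among the other IDR peaks, 17.4 points higher (9.70 to 23.4). Fewer lay within 100 bp of the start site, 36 of 130 (27.7%) against 38.1%, 10.5 points lower (interval of the difference -17.8 to -1.88). The median distance was 186.5 bp in the members and 150 bp in the others. The peaks next down the list lay between the members and the other IDR peaks in the intergenic, intron and upstream shares. Against the next 200 ranks the differences were 5.50 points for intergenic summits (-1.09 to 12.1), -2.0 for introns (-9.14 to 5.15) and 4.35 for the upstream side (-5.12 to 13.6), and each interval includes 0. The promoter share was 70.5% in the next 200 ranks, so its difference had the other sign there, -5.50 points (-14.5 to 3.65).

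**Figure D2:**
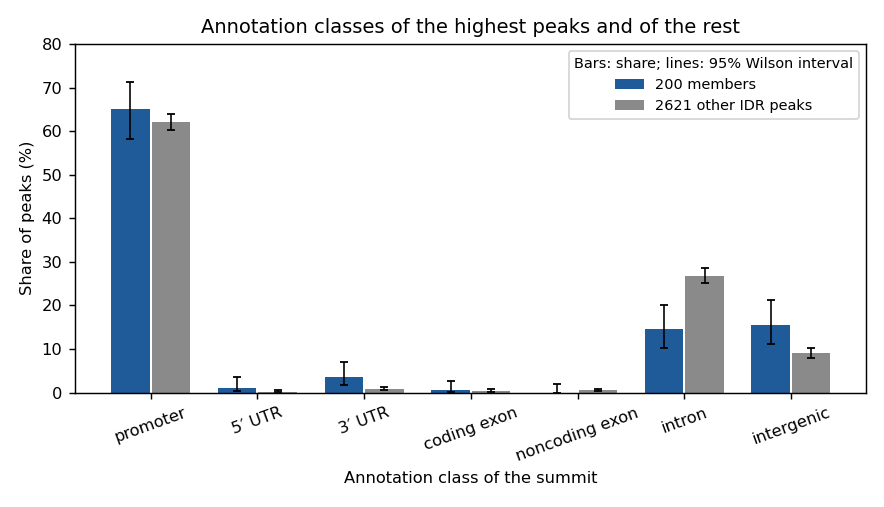
Share of peaks (%) by annotation class of the summit in the 200 members (blue) and the 2621 other IDR peaks (grey); bars are shares and lines 95% Wilson intervals. The promoter bars are 65.0% and 62.1%, while the intron bar is lower and the intergenic bar higher in the members.

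Genes for tRNAs, the adaptors of translation that RNA polymerase III transcribes, stood at several of the highest peaks. The nearest start site was that of a tRNA gene in 9 members (4.50%) and in 38 of the other 2621 IDR peaks (1.45%), a difference of 3.05 points (0.869 to 6.90). Against the next 200 ranks, with 4 of 200, the difference was 2.50 points and its interval, -1.19 to 6.52, includes 0. The summits lay 94 bp upstream of tRNA:Thr-AGT-1-4 (rank 2, signal 11554), 120 bp upstream of tRNA:iMet-CAT-1-5 (rank 10, signal 6780), 62 bp upstream of tRNA:Arg-ACG-1-3 (rank 22, signal 5122), 110 bp upstream of tRNA:Ala-CGC-1-2 (rank 34), 72 bp upstream of tRNA:Ser-GCT-2-5 (rank 35) and 496 bp upstream of tRNA:Lys-TTT-2-1 (rank 37). The other 3 were 37 bp upstream of tRNA:Ala-CGC-1-1 (rank 58), 372 bp downstream of the start of tRNA:Ala-TGC-2-1 (rank 114) and 1332 bp from tRNA:Asn-GTT-1-1, in an intron of EcR (rank 136, without the word). In all, 14 of 290 annotated tRNA genes (4.83%) had a member within 1000 bp of their start, against 1.02% of all 17896 genes and 1.09% of the 13945 protein-coding genes. These 14 genes are not separate events, because tRNA genes stand in arrays: 4 tRNA:Ser genes shared the peak of rank 35. The labels and files do not tell whether a tRNA gene or a neighbour is concerned, and the summit at the initiator methionine genes, for example, lies inside the gene ome. Small nucleolar RNA genes had the nearest start site in 3 members and in 6 of the other IDR peaks.

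Some regions held several members. The densest was the Antennapedia complex on 3R, the cluster of Hox genes that pattern the head and thorax. Over 139818 bp it held 7 members, all with the word, whereas the next densest stretch of 150000 bp held 4. The span was chosen after the cluster had been seen. In order along the chromosome they were at lncRNA:CR42721 (rank 52, signal 3157), lncRNA:CR43435 (rank 79, signal 2013), an unnamed noncoding transcript (rank 96, signal 1484), tRNA:Lys-TTT-2-1 (rank 37, signal 3743), Scr (rank 83, signal 1777), ftz (rank 50, signal 3338) and Antp (rank 6, signal 7722). Scr is the Hox gene of the labial and first thoracic segments, and ftz a pair-rule segmentation gene. None of the 7 lay within 1000 bp of a start site of a Hox gene, and the Scr and ftz summits were 4482 and 6689 bp away from those genes' start sites. The ranks in the replicate lists were close, between 35 and 94 in replicate 2 and between 46 and 104 in replicate 3 for the 6 members other than Antp, whose ranks were 4 and 10.

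**Figure D3:**
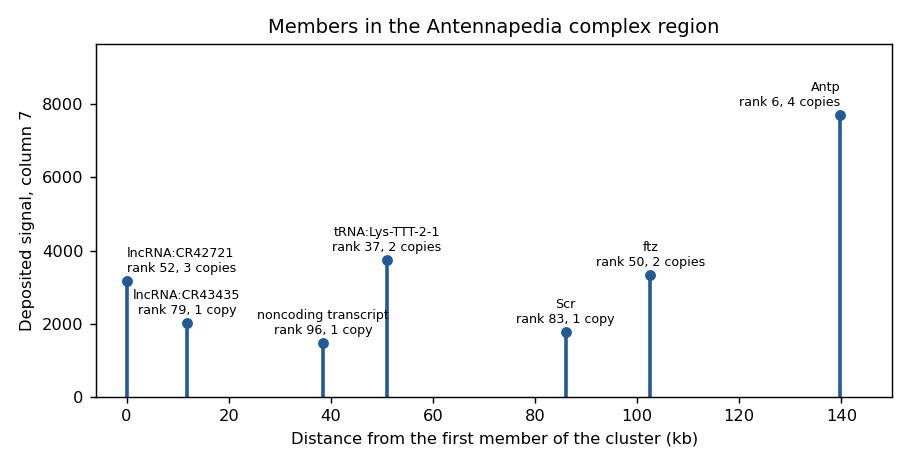
Deposited signal of the 7 members in the Antennapedia complex against distance (kb) from the first of them, each labelled with its gene, rank and number of AAGCAGT copies. The Antp peak, at 139818 bp, is the highest at 7722, and the others lie between 1484 and 3743.

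Pairs of members within 10 kb numbered 14. The peaks at tRNA:Ala-CGC-1-2 and tRNA:Ala-CGC-1-1 (ranks 34 and 58) were 687 bp apart in 1 shared interval. CG3407 had summits of ranks 42 and 178 in 1 interval, 199 bp apart, the first with 2 copies of the word and the second with none. Other pairs were at ph-p, a Polycomb group gene (ranks 97 and 191, 589 bp apart, neither with the word), alpha-Man-Ia, a mannosidase gene (ranks 143 and 148, 3 copies each), and Agpat4 with roq, a Roquin-family gene (ranks 30 and 78). The summits farthest from any start site were in introns of sbb (rank 132, 20103 bp) and Ca-alpha1T, a calcium channel gene (rank 120, 15487 bp), and in the 3′ UTR of pros (rank 106, 14911 bp). Next came CG5023 (rank 185), bun (rank 4), CG13323 (rank 147), the odorant receptor gene Or67d (rank 49) and CG11317 (rank 100), at 14574 to 10760 bp.

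Each of the 200 members had a summit within 100 bp in both replicate lists of 30000 peaks. The IDR list was made from the same reads, so this is a description and no independent check. In replicate 2, 188 members ranked 200 or better, in replicate 3 184, in both 173 and in neither 1. The median shift of the summit was 3 bp in replicate 2 and 4 bp in replicate 3. Apart from dpr20, no member ranked below 262 in replicate 2, and none ranked below 282 in replicate 3. The exception, dpr20 (rank 194), had ranks 1700 and 229, but its interval in replicate 2 held another summit, 134 bp from that of the IDR list, with rank 168. By the ratio of the ranks, the next widest gaps were those of Jhbp1 with ranks 17 and 5 in replicates 2 and 3, lncRNA:CR44829 with 7 and 19, bun with 8 and 3 and Antp with 4 and 10. Counted in places the gaps were wider lower down, as for amon (rank 171) with 262 and 119, CG31262 (rank 167) with 133 and 273 and the Ca-alpha1T peak of rank 190 with 149 and 282.

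The order of the replicates differed with the word. Of the 146 members with the word 98 ranked higher in replicate 2 than in replicate 3 (67.1%), 42 lower and 6 equal, while of the 54 without it 5 ranked higher (9.26%) and 49 lower. The difference was 57.9 points (44.6 to 66.7). Its interval covers counting error over peaks only, since ranks in a list depend on one another and only replicates 2 and 3 were compared. The 5 exceptions were HDAC4, sbb, jp, lncRNA:CR31044 and Tcs5. Since members without the word begin at rank 75, the comparison was repeated within ranks 75 to 200, where it was 57 of 72 (79.2%) against 5 of 54, 69.9 points (54.8 to 79.3). Outside the members, the same order was seen in 42 of 50 peaks with the word and 56 of 150 without it in the next 200 ranks, 46.7 points (31.8 to 57.3). Over all lower IDR ranks the difference was smaller, 17.9 points (11.2 to 24.0). The signal of Ugalt, the highest member without the word, was 1072 in replicate 2 (rank 85) and 1017 in replicate 3 (rank 60), and that of InR 7373 and 4304 (rank 1 in both). How signals were scaled in each list is not given in the sources used here, so only the order is compared. This pattern was noticed in these data and then counted on them, and its cause was not tested.

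**Figure D4:**
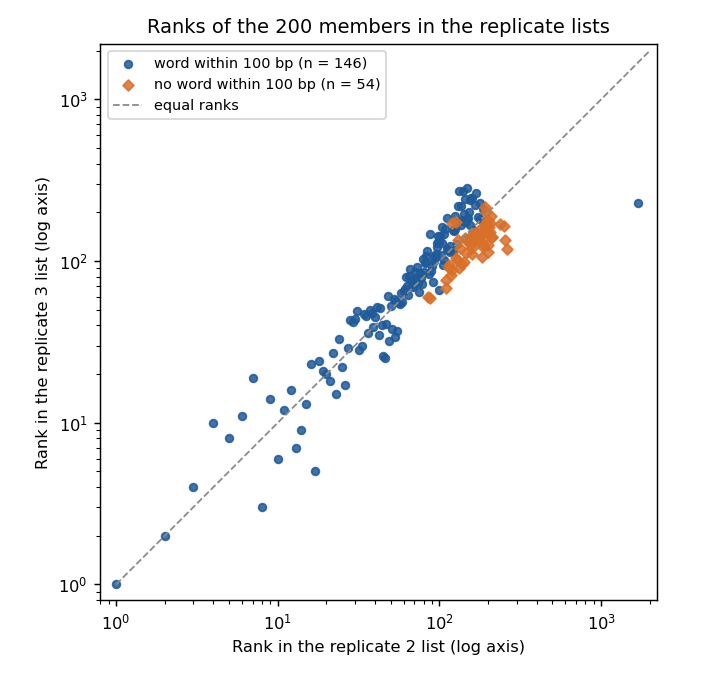
Rank of each of the 200 members in the replicate 2 list (horizontal, log axis) and the replicate 3 list (vertical, log axis), for the 146 with AAGCAGT within 100 bp (blue) and the 54 without (orange); the dashed line marks equal ranks. Of the orange points 49 lie below the line, and the lone point at the far right is dpr20, with rank 1700 in replicate 2.

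Members without the word lay closer to start sites. Their summits were in the promoter class in 43 of 54 cases (79.6%), against 87 of 146 with the word (59.6%), a difference with minus without of -20.0 points (-31.9 to -5.38), and within ranks 75 to 200 of -21.3 points (-35.7 to -4.83). Only 1 of the 54 was intergenic, against 30 of 146, a difference of 18.7 points (8.90 to 26.1). This contrast includes ranks 1 to 74, where every member held the word, and was not repeated within ranks 75 to 200. The median distance to a start site was 200 bp without and 547 bp with the word, or 659.5 bp with the word in ranks 75 to 200. Their peaks were narrower, with a median width of 311.5 bp against 396 bp for members with the word in ranks 75 to 200, and the GC content within 100 bp of the summit had a median of 36.6% against 42.3%. Rank still differed between these groups, with a median of 151 without and 123.5 with the word, and within the members the lower ranks had narrower peaks. The share upstream of the start site among promoter peaks was 83.7% without and 82.8% with the word, and the interval of that difference, -13.3 to 14.2 points, includes 0.

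**Figure D5:**
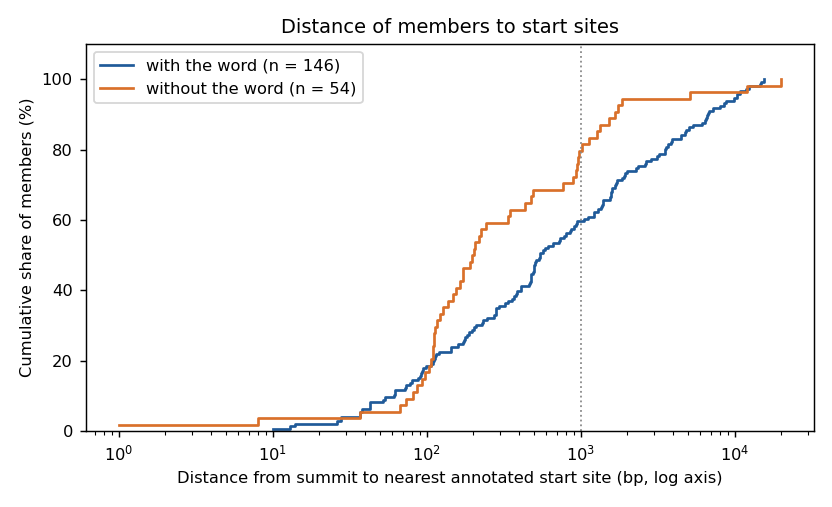
Cumulative share (%) of members by distance (bp, log axis) from the summit to the nearest annotated start site, for 146 members with the word and 54 without; the dotted line marks 1000 bp. The curve of members without the word is the higher from about the point where both reach 20% up to the dotted line, where the shares are 79.6% and 59.6%.

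Sequences at 5 of the 6 highest members without the word are printed for comparison with those above, all plus strand and with 50 bases on both sides of the summit, except that the Ugalt run is limited to 30 bases around it. GC content within 100 bp of the summit was 45.8% at Ugalt, 34.8% at CG11050, 36.3% at CenG1A and at the ph-p peak of rank 97, and 41.3% at lncRNA:CR31840.
Ugalt, chrX:2703874-2703903: aacaaaatttaaaagtgcattgtgcatttc
CG11050, chr2L:6612659-6612759: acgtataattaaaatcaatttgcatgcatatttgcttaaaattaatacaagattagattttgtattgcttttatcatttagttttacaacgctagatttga
CenG1A, chr2L:13835407-13835507: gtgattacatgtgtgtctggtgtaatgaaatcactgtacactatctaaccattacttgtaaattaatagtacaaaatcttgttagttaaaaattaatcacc
ph-p, chrX:2137295-2137395: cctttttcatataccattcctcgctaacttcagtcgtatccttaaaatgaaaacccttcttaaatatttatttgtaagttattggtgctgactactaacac
lncRNA:CR31840, chr2L:14024041-14024141: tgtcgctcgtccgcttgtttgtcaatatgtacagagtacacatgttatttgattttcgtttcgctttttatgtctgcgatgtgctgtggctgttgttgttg
TATAAA, the letters of the TATA element, lay within 100 bp of the summit on either strand in 23 of 54 members without the word (42.6%), in 24 of 146 with it (16.4%), in 27.2% of the other IDR peaks and in 20.4% of the pooled peaks below them. The difference with minus without was -26.2 points (-40.4 to -12.1), and within 250 bp it was -4.39 points with an interval that includes 0. TATAAA holds no G or C, and the median GC content within 100 bp of the summit was 36.6% without the word and 40.3% with it. Members without the word also ranked lower (median 151 against 73.5) and were more often promoter peaks (79.6% against 59.6%). Whether the TATAAA contrast remains at matched GC content, rank or class was not tested. A screen of short words in the members, made after the data were seen, picked out GGCGTAG, with no test. It was in 9 of 54 members without AAGCAGT (16.7%), in 1 of 146 with it, in 1.79% of the other IDR peaks and in 1.02% of pooled peaks below them. All 9 were promoter peaks, as were 43 of all 54 members without AAGCAGT (79.6%). Of the 9, 3 are printed with 11 to 12 bases on each side of the word, whose reverse complement CTACGCC is in capitals.
Ugalt, chrX:2703952-2703981: tttaaagcaagCTACGCCcatggcgtgcag
CG9663, chr2L:3302221-3302250: aaaccccctttCTACGCCactggcataaac
MFS10, chrX:13131315-13131344: ttcccaaagaaCTACGCCatcattctatcg

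Of the other elements searched, the DRE letters TATCGATA were in 6 of 146 members with the word and 1 of 54 without, GAGAGAG in 11 and 3, the CTCF core AGGTGGCG in 6 and 1, and CAGGTAG, the Zelda site, in 1 and 0. In the other IDR peaks these 4 were in 2.98%, 7.13%, 1.68% and 0.687%. The Twist E-box CACATGT was in 9 (6.16%, 95% Wilson interval 3.28 to 11.3%) and 3 (5.56%), against 2.56% of the other IDR peaks. CAGCTG was in 17 and 2, CACGTG in 2 and 0 and the su(Hw) core TGCATACTT in 3 and 0, against 9.84%, 2.90% and 0.916%. The BEAF palindrome and the M1BP core GGTCACACT were in none of the members, for which the Wilson upper limit is 2.56% in those with the word and 6.64% in those without. Their shares in the other IDR peaks were 0.191% and 1.53%.

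The genes at the highest members without the word were Ugalt, a UDP-galactose transporter gene (rank 75, 37 bp upstream), CG11050 (rank 77), px (rank 88), CenG1A (rank 93), ph-p (rank 97), lncRNA:CR31840 (rank 99), PNPase, a gene of mitochondrial RNA processing (rank 101), and the kinase gene Lk6 (rank 102). Further down were Gapdh2 of glycolysis (rank 118), Chro, a chromatin protein gene (rank 122), Hsp83, the Hsp90 gene (rank 138), and Trl, which encodes the GAGA factor (rank 179, intron).

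Most gene lists had few genes with a member at a start site, a count to be read beside the 1.02% share over all genes. The lists were chosen with earlier results of these data known, some around genes at high peaks. A share above 1.02% in a list is therefore a description and no independent support. In insulin signalling 2 of 26 genes had a member within 1000 bp of a start site (InR and Ilp5), among integrins and adhesion genes 2 of 21 (mew and LanB2), and among steroid hormone and nuclear receptor genes 3 of 22. Those 3 were EcR, the ecdysone receptor, through the peak at tRNA:Arg-ACG-1-3 (rank 22), Eip75B (rank 69) and Hr39 (rank 163). Both disco zinc-finger genes had a member, disco-r at rank 41 and disco at rank 113. Among dpr and DIP genes it was 2 of 32 (dpr2 and dpr20), and among heat shock and chaperone genes 2 of 24 (Hsp60A and Hsp83). In the germline list 1 of 20 genes had one, vas, through the peak of rank 44 that it shares with the elongation factor gene TfIIS. The lists of the Notch pathway (19 genes), TGF-beta and BMP signalling (21), circadian genes (12), muscle genes (19), Hox genes (8), Wnt and Hedgehog signalling (26), EGF, FGF and Ras signalling (22) and neuronal and synaptic genes (26) had 0 at a start site. Of these, wg (rank 121), the FGF ligand gene pyr (rank 89), tau (rank 130), Scr and Antp had a member elsewhere in or near the gene. A single gene had one in the lists of gastrulation and apical constriction (T48, of 22), Fat-Hippo and planar polarity (dachs, of 23), actin nucleation (Arp2, of 16), aquaporins (Eglp4, of 7), CheB genes (CheB93b, of 12), glycerolipid acyltransferases (Agpat4, of 11), Polycomb and Trithorax group genes (ph-p, of 23), insulator and promoter-binding proteins (Chro, of 18) and TSC-22 and reticulon genes (Rtnl1, of 5). The lists are short, and none was tested.

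At the end of the list the cut was not marked by a gap in signal. Just inside it, in falling order, were Piezo, a mechanosensitive channel gene (signal 743.2), Pabp2 (741.8), moody, a receptor gene of the glial barrier (740.9), Tcs5 (740.7) and CG9147 (rank 200, 739.675). Just outside were CG33777 (738.366), the phosphatase gene csw (729.6), Alg3 (729.2), Lrch (724.9) and RpS27 (723.4). CG33777 also labelled rank 38, an intergenic summit with a signal of 3691.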

How the data were processed

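The authors deposited peak lists on dm6 with a signal value and a summit per peak: an IDR list, a pooled list and 1 list per replicate of 30000 peaks each. The software for alignment and peak calling, the IDR threshold and the depth are not given in the sources used here. As deposited, the signal is the authors' enrichment value for each peak and serves only to rank within a list. The members, lists and elements were chosen with earlier results of these data known. Summits were annotated with Ensembl 115 genes without pseudogenes and transposable elements, in the order promoter (within 1000 bp of a start site), UTR (5′ before 3′), coding then noncoding exon, intron and intergenic. Replicate peaks were matched by the nearest summit within 100 bp. Words were counted on both strands within 100 bp of the summit. Shares have 95% Wilson intervals and their differences Newcombe intervals, covering counting error only. No p-value was computed, because there is 1 group and peaks are not replicates. Named genes are those of ranks 1 to 40, the highest of each gene list, the 5 members and 5 other peaks at the end of the list, the widest replicate gaps, the 8 highest members without the word, close pairs and the farthest members. Genes named beyond these, the role groups, the replicate order by word, the side and closeness to start sites, the spacing bins, the start at rank 75 and GGCGTAG were chosen after values were seen. Functions were checked on simulated data. Python 3.11.15, numpy 2.4.6 and pandas 2.3.3 were used.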

Additional observations from a re-analysis of the deposited data

How the results depend on the processing

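Alternatives changed the member number (100 or 400), the start-site window, the match and word windows, the comparison peaks and the replicate used; those for class shares, replicate order, TATAAA and the tRNA comparison with the next 200 ranks were chosen after seeing the data. The promoter difference was 6.33 points with an interval above 0 for the 400 highest peaks, but -5.50 against the next 200 ranks and -0.041 against the rest of the upper part of the IDR list by signal, with intervals that include 0. The intergenic difference no longer excluded 0 with a 2000 bp window (3.28) or against the next 200 ranks (5.50), nor against those ranks did the intron (-2.0), upstream (4.35) and tRNA (2.50) differences. The TATAAA difference was -4.39 points within 250 bp, and it was not repeated at matched GC content, rank or class. The share of members with the word was 94.0% for the 100 highest peaks and 49.0% for the 400 highest. Taking the 200 highest peaks of a single replicate's list gave 65.5% (without replicate 2) and 75.5% (without replicate 3) with the word, a promoter difference of 1.28 to 2.59 points, an intergenic one of 6.42 to 7.53, an intron one of -11.7 to -10.7, an upstream one of 14.8 to 22.1 and a tRNA one of 3.01 to 3.43. The replicate order by word kept its direction and an interval above 0 in all 9 alternatives run, between 41.5 and 69.9 points. These alternatives re-count the same 2 replicate lists and are not independent of each other. The causes were not tested. No paired analysis was possible because there is 1 group. Read depth is unknown, and 2 replicates give no estimate of spread for a single peak.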
